A study of Mus musculus with 4 samples.

Results

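The 10 genes described here encode transcription factors of the AP-1 and EGR families and ATF3, grouped here as immediate-early factors. They are Fos, Fosb, Fosl1, Fosl2, Jun, Junb, Jund, Egr1, Egr2 and Atf3, taken by symbol, and all 10 were found by Ensembl identifier among the 21552 genes counted. The data compare heart tissue of infarcted mice, sampled in the remote area away from the infarct, with tissue of uninjured mice that carries the same area label. The infarct came from a lasting tie on the main coronary branch of the left ventricle, the left anterior descending artery. There were 2 mice per group, all C57BL/6, and the tissue was labelled as taken at day 7. Polyadenylated RNA from each heart was sequenced as single-end reads. The uninjured mice are not described as sham-operated, and no age or sex is named. How the hearts were dissected, and how long it took, is not stated either.

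Immediate-early genes are switched on within minutes of a stimulus, without new protein synthesis, and their mRNAs are short-lived. FOS proteins (Fos, Fosb, Fosl1, Fosl2) pair with JUN proteins (Jun, Junb, Jund) through a leucine zipper to form AP-1, which binds DNA sites of the form TGANTCA. EGR1 and EGR2 are zinc-finger factors that bind GC-rich sites, and ATF3 is a stress-induced leucine zipper protein that pairs with JUN proteins. In the heart these genes are known to respond to stretch, ischaemia and growth factors, and also to the handling of tissue, so each library is shown.

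Fosl2, Fosb and Fosl1 were higher in remote myocardium of infarcted hearts. The edgeR fold was 4.35 for Fosl2 and 4.31 for Fosb, and the ratio of pooled reads was 17.5 for Fosl1, from few reads. Egr2 and Atf3 were 17.4- and 7.12-fold higher by estimate, with both infarcted libraries above both uninjured ones. Their adjusted p did not pass in the edgeR quasi-likelihood test (0.0671 and 0.131), whereas DESeq2 and limma-voom called both. Fos, Jun, Junb, Jund and Egr1 overlapped between the groups. In 9 of the 10 genes the mouse numbered 1 was above the mouse numbered 2 in both groups. Fosl1 is among these 9, but with 1 read in each uninjured library its order there comes from library size alone. The gap between mice of a group was 5.64-fold for Egr1 in infarcted hearts.

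The sequence before the transcription start is shown for the members with the largest fold changes that have an entry (Fosb, Fosl2, Egr2 and Atf3), beside Fos and Jun, whose groups overlapped. Each is the 250 bases before the start, from RefSeq on GRCm38.p6, 5′ to 3′ on the gene's strand: Fosb (chr7:19310046-19310295, minus strand), Fosl2 (chr5:32136222-32136471, plus strand), Egr2 (chr10:67537619-67537868, plus strand), Atf3 (chr1:191183334-191183583, minus strand), Fos (chr12:85473640-85473889, plus strand) and Jun (chr4:95052223-95052472, minus strand). Egr2 has 5 annotated starts, and the window nearest the principal GENCODE M21 transcript was taken. Capitals mark a match, on either strand, to any of 4 motifs: the AP-1 site TGANTCA, the cyclic AMP response element as TGACNTCA, the EGR site GCGNGGGCG and the CArG box bound by serum response factor.
Fosb: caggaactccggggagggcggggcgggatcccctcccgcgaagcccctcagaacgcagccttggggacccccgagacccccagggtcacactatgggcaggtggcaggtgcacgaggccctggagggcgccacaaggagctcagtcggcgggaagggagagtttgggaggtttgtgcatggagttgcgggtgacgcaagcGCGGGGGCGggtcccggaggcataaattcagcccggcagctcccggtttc
Fosl2: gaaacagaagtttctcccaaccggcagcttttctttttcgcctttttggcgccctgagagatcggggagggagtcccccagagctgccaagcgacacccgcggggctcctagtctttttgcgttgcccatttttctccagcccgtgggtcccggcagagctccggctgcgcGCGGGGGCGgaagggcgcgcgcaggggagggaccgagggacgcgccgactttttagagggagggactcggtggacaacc
Egr2: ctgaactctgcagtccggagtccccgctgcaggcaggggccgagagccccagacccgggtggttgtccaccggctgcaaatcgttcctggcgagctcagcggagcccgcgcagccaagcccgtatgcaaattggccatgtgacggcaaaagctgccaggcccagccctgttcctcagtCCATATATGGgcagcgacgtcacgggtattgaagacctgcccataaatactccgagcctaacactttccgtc
Atf3: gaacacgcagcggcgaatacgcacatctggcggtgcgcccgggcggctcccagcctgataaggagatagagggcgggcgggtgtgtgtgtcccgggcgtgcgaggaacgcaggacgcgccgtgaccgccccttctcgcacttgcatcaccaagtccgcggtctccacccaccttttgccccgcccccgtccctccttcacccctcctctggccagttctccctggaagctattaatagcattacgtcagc
Fos: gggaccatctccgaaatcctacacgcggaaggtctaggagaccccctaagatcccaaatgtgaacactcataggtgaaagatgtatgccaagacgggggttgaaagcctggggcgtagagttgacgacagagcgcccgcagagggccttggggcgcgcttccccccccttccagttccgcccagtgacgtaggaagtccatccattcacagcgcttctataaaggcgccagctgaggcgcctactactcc
Jun: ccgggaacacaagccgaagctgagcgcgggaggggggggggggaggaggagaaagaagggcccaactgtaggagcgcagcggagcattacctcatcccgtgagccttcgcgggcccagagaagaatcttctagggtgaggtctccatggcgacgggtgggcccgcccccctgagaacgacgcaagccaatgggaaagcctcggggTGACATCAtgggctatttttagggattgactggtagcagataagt
Fosb and Fosl2 each held 1 EGR match, GCGGGGGCG, which began 50 and 79 bases before the start. Egr2 held 1 CArG box, CCATATATGG, 72 bases before the start, and Jun held TGACATCA, 45 bases before it. Of 32817 such windows of all genes, 4.7% held the EGR site, 1.47% the CArG box, 7.49% the cyclic AMP element and 6.75% the AP-1 site. The windows of Fos, Atf3, Junb and Jund held no match to any of the 4, and none of the 8 members searched held TGANTCA. A match is only a description of these letters, and a longer window was not searched.

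Levels are given as CPM, counts scaled to a common library size by TMM, a method that sets most genes to no change. The libraries held 35715115 to 70885393 counts. The call for a difference is a Benjamini-Hochberg adjusted p below 0.05 over the 13905 genes tested by edgeR. All 10 members passed the filter on low counts. Fosl1, with 1 read in each uninjured library, passed only through the infarcted libraries, where it is high. Its call, which is part of the count below, is therefore not independent of that filter. edgeR called 3 of the 10 higher, where it called 18.3% of all tested genes higher, and 0 lower, where it called 14.6% lower. No member was lower at an unadjusted p below 0.05 in edgeR, and DESeq2 and limma-voom called 0 lower. The median log2 fold change was 1.21 over the members and 0.02 over all tested genes. In 5 members both infarcted libraries lay above both uninjured ones, against 36.2% of all tested genes, and in 0 members below, against 33.8%.

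**Figure D1:**
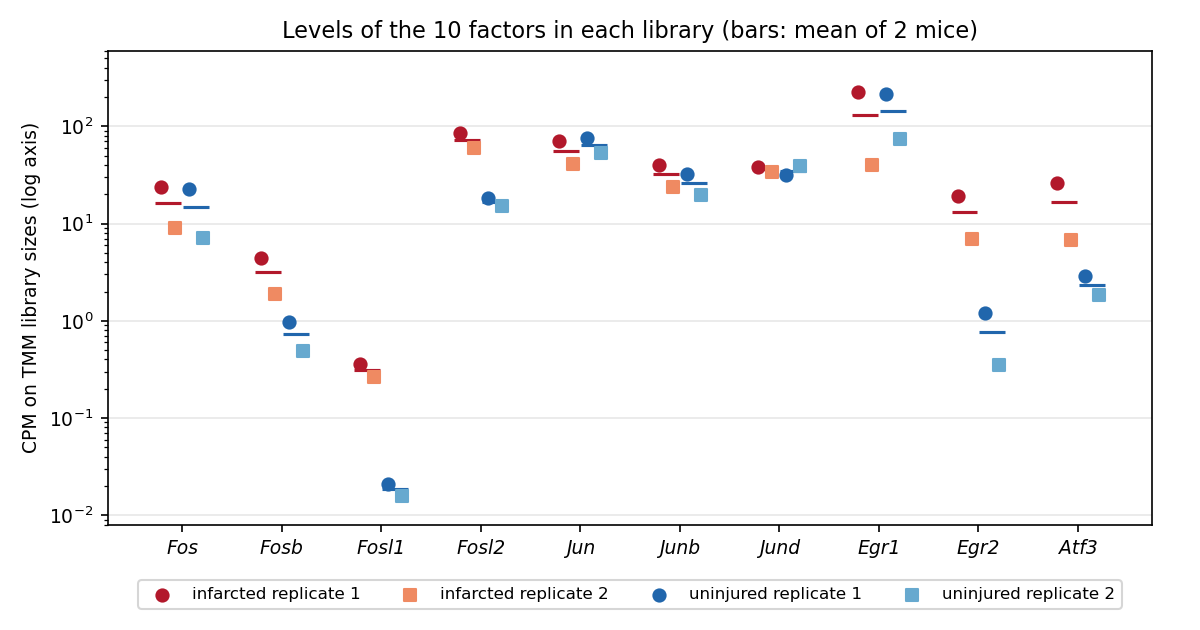
Level of each of the 10 genes in each of the 4 libraries, in CPM on a log axis, with short bars at the mean of the 2 mice of a group. The groups are apart for Fosb, Fosl1, Fosl2, Egr2 and Atf3, and overlap for the other 5 genes, where the circles of replicate 1 are mostly above the squares of replicate 2.

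Fosl2 encodes FRA2, a FOS protein that lacks the strong activation domain of FOS and is known for its part in fibrosis. It stood at 85.8 CPM in infarcted replicate 1, 59.4 CPM in infarcted replicate 2, 18.1 CPM in uninjured replicate 1 and 15.3 CPM in uninjured replicate 2. Pairs of values below keep this order. Both infarcted libraries were far above either uninjured one, and infarcted replicate 1 was 1.44 times infarcted replicate 2. Its log2 fold change was 2.12 ± 0.22 (SE), with an edgeR adjusted p of 2.76e-05, and the group means were 72.6 ± 18.7 and 16.7 ± 2.03 CPM (SD, n = 2). Fosl2 was the member with the smallest p. Left without uninjured replicate 2, edgeR gave a log2 fold change of 1.99 and an adjusted p of 0.0572, in a fit where it called 0.714% of all genes higher, and DESeq2 still called it.

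Fosb encodes a FOS protein whose truncated form is long-lived. Its levels were 4.38 and 1.91 CPM after infarction and 0.981 and 0.494 CPM without injury, so that the groups were apart. Its log2 fold change was 2.11 ± 0.47 (edgeR adjusted p = 0.00627). The call ended without uninjured replicate 1 (adjusted p = 0.0648) and without uninjured replicate 2 (adjusted p = 0.184), where the log2 fold changes were 2.66 and 1.67. Without infarcted replicate 1 the log2 fold change was 1.30 in edgeR, which still called it, and 1.32 in DESeq2, which did not (adjusted p = 0.272).

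Fosl1 encodes FRA1, a FOS protein of activated and migrating cells. It was close to the limit of counting, with 18 and 11 reads after infarction and 1 read in each uninjured library. The ratio of the pooled reads, scaled to library size, was 17.5, with an exact 95% interval of 4.42 to 151 that covers counting error only. edgeR called Fosl1 higher (adjusted p = 0.00272), and its fitted fold change depends on the prior count. Left without either uninjured library its adjusted p was 0.0656 or 0.121. The gene overlaps 1163 exonic bases of Ccdc85b on the other strand, and since strand is not stated, reads from both cannot be told apart.

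The JUN genes, whose products form AP-1 with a FOS protein or with each other, showed no difference past the test. Jun was at 71.5 and 41.4 CPM after infarction and 75.7 and 52.7 CPM without injury. Its log2 fold change was -0.18 ± 0.28, and 0.15 with library totals as the scale. Junb was at 40.5 and 23.9 CPM against 32.6 and 19.6 CPM, with a log2 fold change of 0.30 ± 0.32. In both genes the value of infarcted replicate 2 lay within or below the uninjured range, while replicate 1 was the higher mouse of each group. Jund, the JUN gene known for its steady level in resting cells, was at 38.0 and 34.1 CPM against 31.4 and 38.8 CPM, a log2 fold change of 0.04 ± 0.19. Jund was the only member with its uninjured mice in the other order, replicate 2 above replicate 1. Their edgeR adjusted p-values were 0.651, 0.506 and 0.902, and the standard errors still allow modest differences. Each shares exonic bases with a gene on the other strand: 232 bases of Jun with Junos, 173 of Junb with Prdx2 and 877 of Jund with Gm11175.

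Fos, the founding AP-1 gene, was at 23.7 and 8.99 CPM after infarction and 22.5 and 7.18 CPM without injury. The 2 replicates numbered 1 were close to each other, as were the 2 replicates numbered 2, whichever the group. Between groups the log2 fold change was 0.15 ± 0.95 (edgeR adjusted p = 0.930). It was -0.81 without infarcted replicate 1, -0.47 without uninjured replicate 2, 0.64 without infarcted replicate 2 and 1.18 without uninjured replicate 1.

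Egr1, an early growth response factor of serum and stress signals, had the widest spread. It was at 224 and 39.7 CPM after infarction and 213 and 73.9 CPM without injury, and infarcted replicate 2 was the lowest of the 4. Its log2 fold change was -0.12 ± 1.32 (edgeR adjusted p = 0.959), and 0.18 with library totals as the scale. Without infarcted replicate 1 edgeR called Egr1 lower, at -1.95 with an adjusted p of 5.28e-06, and the value was 0.60 without infarcted replicate 2 and 0.83 without uninjured replicate 1. DESeq2 without infarcted replicate 1 gave -1.91 with an adjusted p of 0.308. In a fit with a single infarcted library its spread is assumed to be like that of the uninjured group.

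Egr2, a related zinc-finger factor known in myelin formation and in macrophages and fibroblasts, had another pattern. Its levels were 19.2 and 6.96 CPM after infarction and 1.19 and 0.350 CPM without injury. The groups were far apart, and replicate 1 was 2.75 times replicate 2 in infarcted and 3.40 times in uninjured hearts. With a log2 fold change of 4.12 ± 0.97, Egr2 was not called by edgeR with all 4 libraries (adjusted p = 0.0671), whereas DESeq2 (adjusted p = 0.000599) and limma-voom (adjusted p = 0.00232) called it. Its edgeR log2 fold change was 3.12 without infarcted replicate 1 and 4.64 without infarcted replicate 2. It was 5.21 without uninjured replicate 1 and 3.45 without uninjured replicate 2. Each of these fits holds a single library in the reduced group, so the gap between the mice of that group does not enter it.

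Atf3 was at 26.4 and 6.84 CPM after infarction and 2.86 and 1.85 CPM without injury. Both infarcted libraries were above both uninjured ones, and infarcted replicate 1 was 3.86 times infarcted replicate 2. At a log2 fold change of 2.83 ± 0.92 it was not called by edgeR (adjusted p = 0.131), whereas DESeq2 called it at an adjusted p of 0.0139 and limma-voom at 0.0109. Without infarcted replicate 1 the value was 1.46 and without infarcted replicate 2 it was 3.47. These fits hold a single infarcted library, so the gap between the infarcted mice does not enter them. Without uninjured replicates 1 and 2 the values were 3.17 and 2.54, and neither edgeR (adjusted p = 0.0918 and 0.175) nor DESeq2 (adjusted p = 0.104 and 0.311) called Atf3. DESeq2 and limma-voom each called 5 members higher, against 15.8% and 17.7% of all genes.

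Under other settings the count of members called higher stands against these shares of all genes. It was 3 of 10 with RLE factors (18.0%), library totals (31.5%), mitochondrially encoded genes left out (18.4%) and no filter (15.1%), 2 with a filter at 1 CPM (19.6%), 4 with the transcript length trend removed (17.5%) and 5 with the replicate block (21.2%). Leaving out infarcted replicate 1 gave 4 (14.9%), infarcted replicate 2 gave 5 (13.7%), uninjured replicate 1 gave 2 (11.8%) and uninjured replicate 2 gave 0 (0.714%), where 3 had an unadjusted p under 0.05. In DESeq2 the same order of libraries gave 3 (9.79%), 4 (9.64%), 3 (13.4%) and 2 (8.78%).

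Members called lower numbered 0 in each of these settings but 1, the edgeR fit without infarcted replicate 1, which called Egr1 (11.5% of all genes). At an unadjusted p under 0.05 the lower count was 3 in that fit, 1 in DESeq2 without the same library and 0 in the rest. The shares of all genes called lower were 15.4% with RLE factors, 5.65% with library totals, 14.5% without mitochondrially encoded genes, 12.7% with no filter and 15.9% at 1 CPM. They were 14.4% in DESeq2, 13.2% in limma-voom, 16.8% with the block and 14.1% with the length trend removed. Leaving out infarcted replicate 2 gave 8.83%, uninjured replicate 1 gave 12.7% and uninjured replicate 2 gave 0.056%. In DESeq2 leaving out infarcted replicates 1 and 2 gave 8.6% and 6.49%, and uninjured replicates 1 and 2 gave 13.0% and 4.52%.

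**Figure D2:**
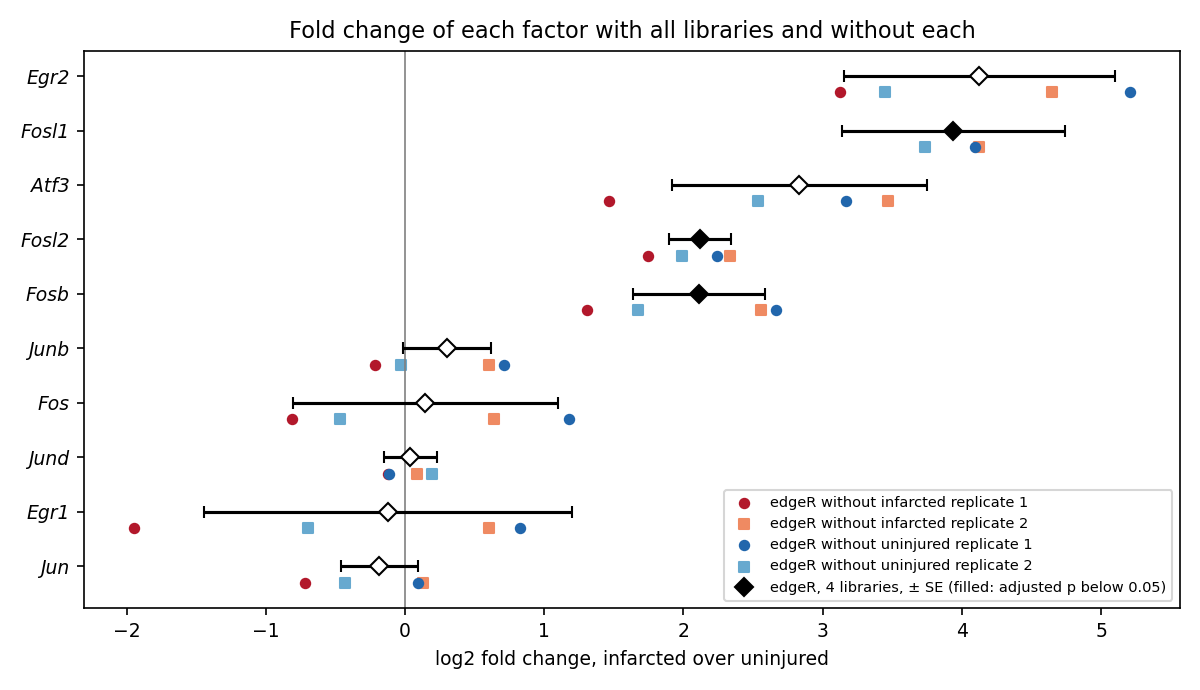
Log2 fold change of each gene, infarcted over uninjured, from edgeR with all 4 libraries (diamonds, bars ± SE, filled where the adjusted p is below 0.05), and below each diamond the value without each library in turn. Fosl2 stays between 1.75 and 2.33, while Fos, Jun, Junb, Jund and Egr1 have values on both sides of 0.

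Compared per kilobase of exon, with exon lengths from GENCODE M21, the order of the genes differed between the groups. In uninjured hearts Egr1 was first at 32.0 ± 22.0 CPM per kilobase (SD, n = 2), then Jund at 21.1 ± 3.15, Jun at 20.1 ± 5.08, Junb at 11.3 ± 4.02 and Fos at 6.31 ± 4.6. The first 3 of these changed order between the 2 uninjured libraries. Junb was above Fos in each uninjured library, at 14.2 against 9.56 and 8.50 against 3.05 CPM per kilobase. It was also above Fos in each infarcted library, at 17.6 against 10.1 and 10.4 against 3.82. Fosl2 followed at 1.73 ± 0.209, Atf3 at 1.09 ± 0.332, Egr2 at 0.227 ± 0.175, Fosb at 0.118 ± 0.0552 and Fosl1 at 0.00905 ± 0.00172. In infarcted hearts Egr1 (29.4 ± 29.0), Jund (21.6 ± 1.65), Jun (17.7 ± 6.68) and Junb (14.0 ± 5.10) kept the first 4 places. Atf3 at 7.73 ± 6.43 and Fosl2 at 7.50 ± 1.93 then stood beside Fos at 6.94 ± 4.41, within the spread of each other, and Egr2 was at 3.85 ± 2.54.

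Within a family the make-up can be read inside each library, where depth and scaling cancel. Fosl2 made up 44.8% and 59.0% of the FOS family level per kilobase after infarction and 16.2% and 33.4% without injury. Fos made up 50.8% and 36.8% against 82.4% and 64.7%. The groups did not overlap in either share, and in each group the share of Fosl2 was lower in replicate 1. Egr2 made up 10.2% and 18.8% of the summed Egr1 and Egr2 level after infarction and 0.731% and 0.622% without injury. The JUN family kept all 3 members in every library, with Jun at 29.6% to 41.8%, Junb at 17.6% to 28.01% and Jund at 33.2% to 48.2%, and its groups overlapped in each. These shares are descriptions, since 2 mice against 2 cannot give an exact permutation p below 0.333.

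**Figure D3:**
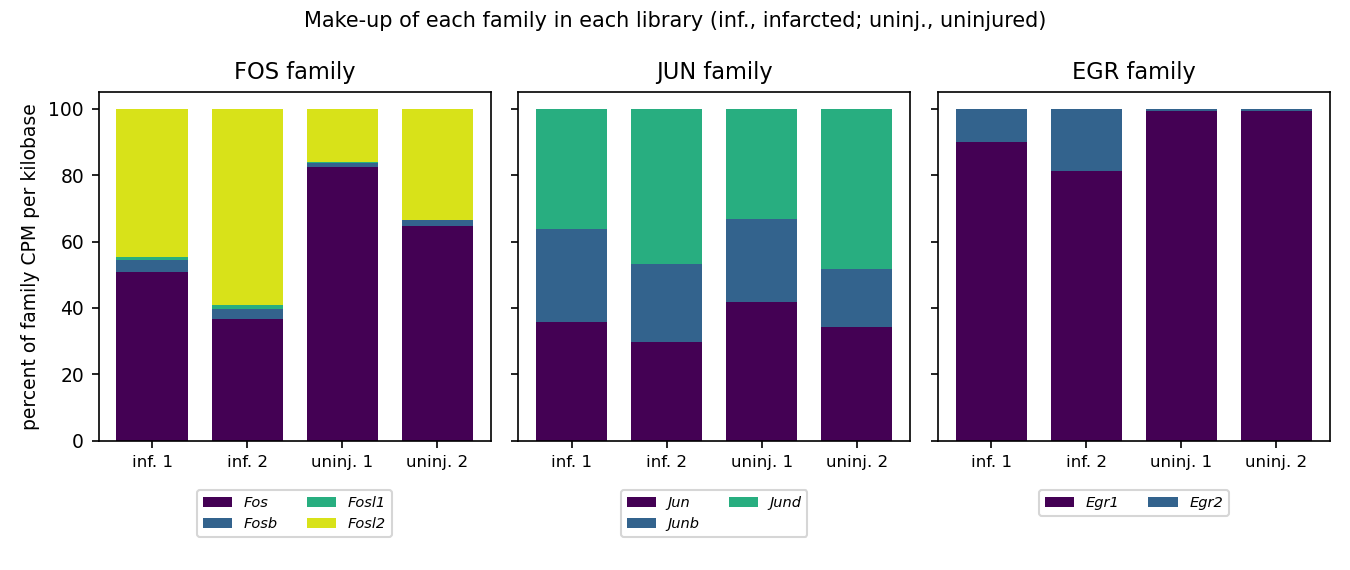
Share of each gene in the summed CPM per kilobase of its family, in percent, for each library (bars stack to 100). Fosl2 takes 44.8% and 59.0% of the FOS family after infarction and 16.2% and 33.4% without injury, and Egr2 takes 10.2% and 18.8% of the EGR bar after infarction and under 1% without injury.

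The difference between the 2 mice of a group was set beside that of all genes. Replicate 1 was above replicate 2 in both groups for 9 of 10 members and for 23.8% of all tested genes. The median difference over the members was 0.99 on the log2 scale in infarcted and 0.68 in uninjured hearts, against 0.0002 and -0.05 over all tested genes. For Egr1 the difference of 2.50 in infarcted hearts was above that of 99.9% of tested genes, and the 1.53 in uninjured hearts was above 99.6%. For Fos, with 1.39 and 1.64, the shares were 99.3% and 99.7%, and for Egr2, with 1.46 and 1.66, they were 99.4% and 99.7%. For Fosl2, with 0.53 and 0.25, they were 92.5% and 75.2%, and Jund was at 71.7% and 24.98%. The replicate numbers do not tie a mouse of one group to a mouse of the other in the labels. Heat shock genes, a list of 12 that includes the inducible Hspa1a and Hspa1b, were above in replicate 1 of both groups for 4 of 12. Erythroid markers were above in replicate 1 of both groups for 5 of 5, with a summed level of 74.95 and 38.2 CPM in the infarcted and 133 and 97.6 CPM in the uninjured libraries. Of 6 activated fibroblast markers 5 were above in replicate 1 of both groups, the exception being Acta2. Of 8 fibroblast markers 1 was above in replicate 1 of both groups and 4 in replicate 2 of both. Of 5 smooth muscle markers these counts were 1 and 4. The share of counts from mitochondrially encoded genes was higher in replicate 1 of both groups. It was 42.0% and 36.7% in the infarcted and 48.4% and 41.4% in the uninjured libraries. The part of these in the result was not tested, nor was that of dissection.

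**Figure D4:**
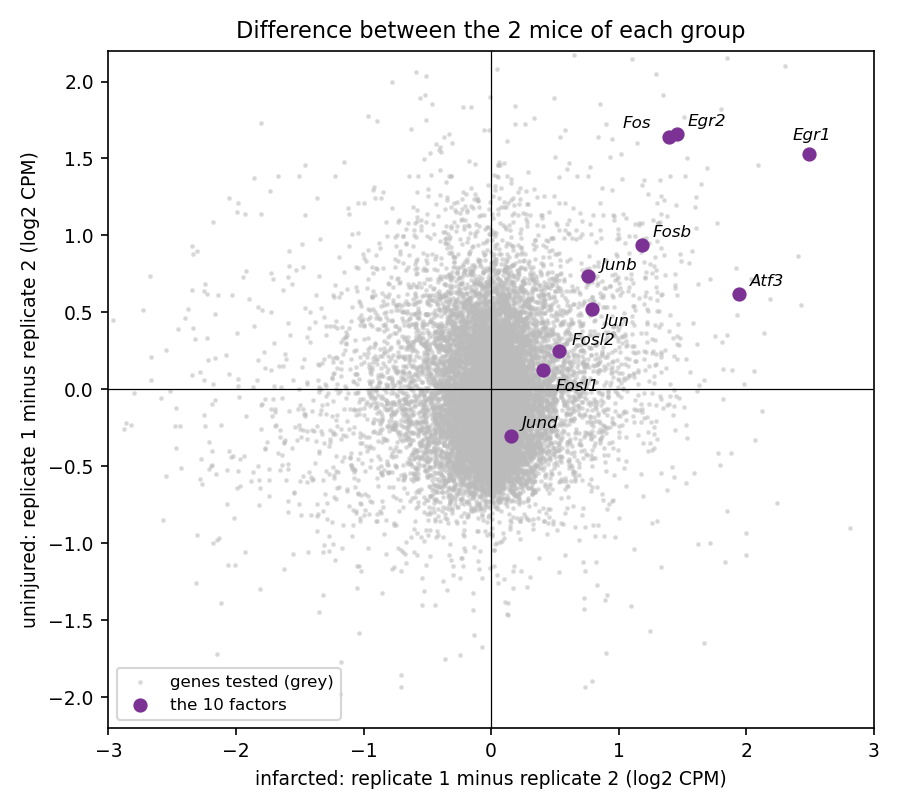
Difference between the mice of a group, replicate 1 minus replicate 2 in log2 CPM, in infarcted (horizontal) and uninjured (vertical) hearts, for the 10 genes and for 13849 tested genes in grey, with 56 genes beyond the axes not drawn. Egr1, Egr2, Fos and Fosb lie far to the upper right, and Jund near the centre.

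Cell type markers differed between the libraries as well. Cardiomyocyte markers summed to 31018 to 35046 CPM in infarcted and 51826 to 61798 CPM in uninjured libraries. Of these 8 markers 4 were called lower, against 14.6% of all tested genes. Ryr2 and Ttn overlapped between the groups, at log2 fold changes of -0.20 and 0.17. Of 8 macrophage markers all 8 were called higher, with a sum of 433 and 456 against 172 and 153 CPM. Also called higher were 4 of 8 fibroblast, 5 of 6 activated fibroblast and 2 of 5 smooth muscle markers. The share called higher over all tested genes was 18.3%. Of 6 endothelial markers 0 were called in either direction, and 4 of 5 erythroid markers were called lower, against 14.6% of all tested genes. Of 5 atrial markers 2 were at 0 in a library, and this list stood apart in infarcted replicate 2, where Myl4 was at 361 CPM against 1.34 to 2.44 CPM in the other libraries and Myl7 at 132 against 0.0800 to 0.319 CPM. Of 4 epicardial markers 3 were also highest in that library, with Upk3b at 7.41 CPM against 0.520 to 3.09 CPM, Msln at 10.1 against 1.02 to 1.46 CPM and Krt19 at 3.22 against 0.280 to 0.501 CPM. The activated fibroblast markers summed to 1996 and 1364 CPM against 146 and 179 CPM, and neutrophil markers to 7.54 and 16.8 against 3.32 and 2.53 CPM. In bulk tissue a change in cell numbers and a change in RNA per cell cannot be told apart, and the part of these cells in the members' levels was not tested.

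Of 45 other immediate-early genes tested, edgeR called 17 higher and 2 lower, with a median log2 fold change of 0.75. The shares over all tested genes, against which this and the lists below are read, were 18.3% higher and 14.6% lower, 31.5% and 5.65% with library totals, and 0.714% and 0.056% without uninjured replicate 2. Those with the smallest p were Per1, also a clock gene, at 72.8 and 94.0 against 11.8 and 17.8 CPM (log2 fold change 2.49 ± 0.24), and Maff, a small MAF protein, at 14.3 and 13.7 against 3.07 and 3.04 CPM (2.196 ± 0.22). Myc, a growth regulator, was at 15.4 and 11.6 against 3.15 and 3.19 CPM (2.09 ± 0.24), and Socs3, a brake on cytokine signals, at 11.6 and 13.4 against 2.90 and 3.49 CPM (1.97 ± 0.23). Per1 and Socs3 were higher in replicate 2 of both groups, Maff was slightly higher in replicate 1 of both, and Myc was higher in replicate 1 of the infarcted mice alone. Their edgeR adjusted p ran from 1.83e-05 to 8.19e-05. Replicate 1 was above replicate 2 in both groups for 24 of the 45. With library totals as the scale 26 were called higher and 0 lower, with 0 lower before adjustment. Without uninjured replicate 2 the edgeR calls were 2 higher and 0 lower, in a fit that called 0.714% and 0.056% of all genes. In that fit 15 and 5 had an unadjusted p under 0.05, and DESeq2 called 14 and 3. Without infarcted replicate 2 edgeR and DESeq2 called fewer lower, in fits that also called a smaller share of all genes lower.

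**Figure D5:**
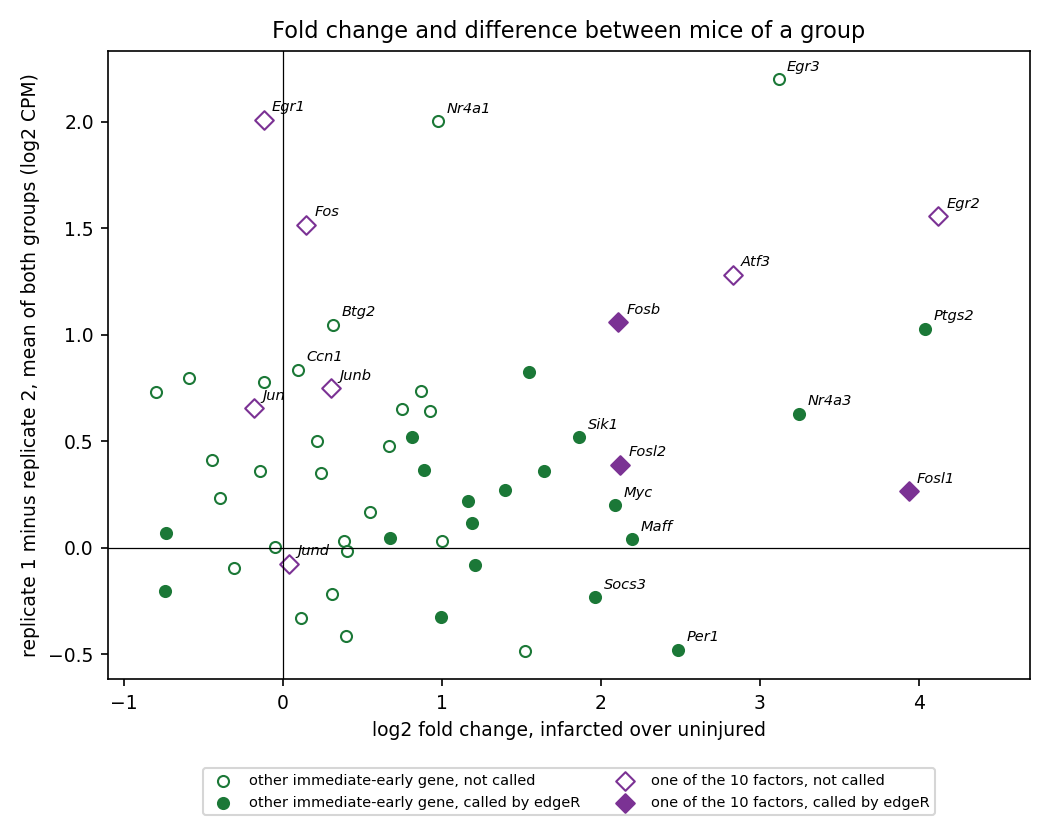
Log2 fold change, infarcted over uninjured, against the difference between mice (replicate 1 minus replicate 2 in log2 CPM, mean of both groups) for 45 other immediate-early genes (circles) and the 10 factors (diamonds), filled where edgeR called the gene. Egr1 and Fos sit high with fold changes near 0, and Per1, Maff, Myc and Socs3 sit low with log2 fold changes of 1.97 to 2.49.

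Among 18 tested partners, other leucine zipper factors and the NAB corepressors of EGR proteins, edgeR called 4 higher and 0 lower, with a median log2 fold change of 0.38. The higher count is near the 18.3% of all tested genes. None was lower at an unadjusted p under 0.05, nor by DESeq2 or limma-voom. Mafk, a small MAF protein, rose by 1.03 ± 0.20 on the log2 scale and Maf by 0.76 ± 0.24. Jdp2, a repressor that pairs with JUN proteins, rose by 1.11 ± 0.23, from 4.47 and 5.06 to 9.42 and 11.3 CPM. These 3 had edgeR adjusted p-values of 0.00236 to 0.0275. With library totals as the scale 9 were called higher, against 31.5% of all genes. With a library left out, fewer partners were called in some fits. In those fits edgeR or DESeq2 also called a smaller share of all genes higher.

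Of 21 upstream kinases, receptors and serum response factors, edgeR called 5 higher and 0 lower, with a median of 0.08. Here too the higher count is near the 18.3% of all tested genes. In the lower direction 1 gene was lower at an unadjusted p under 0.05, and DESeq2 called 1 lower and limma-voom 0. Egfr, a growth factor receptor, was at 16.9 and 19.1 against 7.85 and 5.99 CPM, a log2 fold change of 1.38 ± 0.22 (edgeR adjusted p = 0.000591). The kinases Rps6ka3 and Mapk7 rose by 0.97 ± 0.20 and 0.81 ± 0.22, and Mrtfa, a cofactor of serum response factor, rose by 0.81 ± 0.21. Srf itself was not called, at -0.09. With library totals as the scale 10 were called higher, against 31.5% of all genes. Fewer were called higher in some fits with a library left out, which also called a smaller share of all genes higher.

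Of 25 genes known as targets of AP-1 or EGR1, edgeR called 15 higher and 1 lower, against 18.3% and 14.6% of all tested genes, with a median log2 fold change of 2.14. Ccn2, a matrix regulator, was at 485 and 797 against 40.5 and 33.4 CPM (log2 fold change 4.12 ± 0.29). The membrane metalloproteinase Mmp14 rose by 2.14 ± 0.19 and the hyaluronan receptor Cd44 by 2.48 ± 0.23, and the edgeR adjusted p of these 3 ran from 2.20e-06 to 1.18e-05. All 3 have other regulators, and whether any of the 10 factors acted on them was not measured. The target list was chosen with earlier results of these data known, so its counts are no independent support for activity of the factors. Without uninjured replicate 2 edgeR called 5 higher, against 0.714% of all genes, where 16 had an unadjusted p under 0.05. The single gene called lower, F3, lost its call with library totals, with the transcript length trend removed, without infarcted replicate 1 and without either uninjured library.

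Of the 12 heat shock genes edgeR called 4 higher and 3 lower, against 18.3% and 14.6% of all tested genes, with a median of -0.03. Hspa1b was at 0.640 and 0.286 against 0.104 and 0.0478 CPM, a log2 fold change of 2.63 ± 0.67. It rested on few reads, 32 and 12 against 5 and 3, and DESeq2 did not call it (adjusted p = 0.0697). Hspa1b shares much of its sequence with Hspa1a. Hsp90aa1 rose by 0.73 ± 0.20, while the mitochondrial chaperones Hspe1 and Hspd1 fell by 0.94 ± 0.20 and 0.76 ± 0.21. The edgeR adjusted p of these 4 ran from 0.00342 to 0.0152. DESeq2 called 1 higher, and without infarcted replicate 1 edgeR and DESeq2 called 0 higher (14.9% and 9.79% of all genes), where 2 and 1 had an unadjusted p under 0.05. Without uninjured replicate 2 edgeR called 0 in either direction (0.714% and 0.056% of all genes), where 3 each had an unadjusted p under 0.05, and DESeq2 called 0 higher and 1 lower. Without uninjured replicate 1 edgeR called 1 higher (11.8% of all genes), and without infarcted replicate 2 it called 1 lower (8.83%).

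For 3 members the genes with the closest profile over the 4 libraries were found, by the Euclidean distance between mean-centred log2 CPM, among 9502 other genes of at least 5 CPM. Closest to Fos were Btg2, an antiproliferative gene, at a distance of 0.49, then Kctd12b at 0.56 and Ccn1, a matricellular gene, at 0.76. Btg2 was at 100 and 51.3 CPM after infarction and 83.6 and 38.2 CPM without injury. Btg2 and Ccn1 are also on the list of other immediate-early genes. Closest to Junb were Dach1 at 0.03, Vegfa at 0.09 and Mndal at 0.17. Closest to Atf3 were Ms4a7 at 0.57, Mest at 0.57 and Ncapg2 at 0.69. With 4 libraries many genes have like profiles, and the distance is a description.

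Splicing was measured for 5 events in 2 members, Fosl1 and Fosl2. A cassette exon of 108 bases in Fosl2 (chr5:32452794-32452901, mm9) was the only one with at least 10 reads in every library. It was fully included in each, at 100% of 160, 68, 21 and 28 reads in the 4 libraries. The lower Wilson 95% bounds were 97.7%, 94.7%, 84.5% and 87.9%, for counting error only. The lesser-used of 2 alternative 3′ splice sites, 3 bases apart, in Fosl2 took 1 of 52 and 2 of 31 reads in the infarcted libraries, and the uninjured ones held 5 and 2 reads in all, too few to compare.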

How the data were processed

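Polyadenylated RNA from 4 mouse hearts was sequenced as single-end reads of 50 bp, per the labels' protocols. The authors deposited raw counts per Ensembl gene, not normalized, and percent inclusion of splicing events with their inclusion and exclusion reads. The build is mm9, per the submitters' processing notes. The sources used here name no aligner, counter, annotation or strand setting. Library totals ranged from 35715115 to 70885393 counts. Ensembl identifiers were looked up in GENCODE M21 for symbols, and 20450 of 21552 genes matched. The list symbols Cebpd and Atf7 were not matched.

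Counts were tested in edgeR 4.0.16 (R 4.3.3) with the quasi-likelihood test, TMM, robust dispersions and filterByExpr by group, with Benjamini-Hochberg adjustment over 13905 genes, at 2 residual degrees of freedom. The common biological coefficient of variation was 19.3%. Standard errors are the absolute log2 fold change over the square root of F. Alternatives were DESeq2 1.42.0, limma-voom (limma 3.58.1), other scalings and filters, removal of a loess trend with transcript length, a replicate block, and leaving out each library. In simulated libraries at these depths, among 13905 genes, edgeR recovered 94% of genes raised 4-fold and 58% of those raised 2-fold. Of those lowered as much it recovered 78% and 36%, and it called 13 unchanged genes. The changed genes were drawn at random from all tested genes. These shares therefore do not apply to members of wide spread, such as Fos, Egr1, Egr2 and Atf3 (SE 0.92 to 1.32).

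The named genes are all 10 members, the 4 smallest p of each other list, and for Fos, Junb and Atf3 the 3 nearest profiles. Some genes that this rule names are not reported here. The members and lists were chosen with earlier results of these data known. Where nothing says the 2 samples of a group were prepared separately, p-values measure only the spread between them, moderated by spread borrowed from all genes.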

Additional observations from a re-analysis of the deposited data

How the results depend on the processing

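With 2 mice per group most calls rest on the spread borrowed from all genes, and of the 4 libraries uninjured replicate 2 was the one whose removal left the fewest calls in edgeR. At the depth of the uninjured libraries, Fosl1 rests on 1 read in each. Counts of members called higher were 5 with DESeq2, 5 with limma-voom and 5 with the replicate number as a block, and ran from 0 to 5 with each library left out. Members called lower ran from 0 to 1. The block changed the call of Egr2 (log2 fold change 4.13) and Atf3 (2.57). Deviations of same-numbered mice had a correlation of 0.108 across genes over 2 pairs, which does not establish pairing.

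Over all genes, with library totals as the scale 4386 were called higher and 786 lower, as the median of all genes moved from 0.02 to 0.36. With each library left out, higher calls ran from 102 to 2144 and lower calls from 8 to 1824, and in DESeq2 higher calls were 1343, 1280, 1798 and 1167 and lower calls 1179, 861, 1743 and 600 without infarcted replicates 1 and 2 and uninjured replicates 1 and 2.

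For other immediate-early genes the higher count was 26 with library totals and 2 to 20 with a library left out. The lower count was 0 with library totals, 4 with the block, 1 with the transcript length trend removed and 0 to 3 with a library left out. Partners called higher numbered 9 with library totals and 0 to 4 with a library left out. Upstream genes called higher numbered 10 with library totals and 0 to 5 with a library left out. Upstream genes called lower numbered 1 with RLE factors, with no filter, with DESeq2, with the block and with the length trend removed, and 0 to 2 with a library left out. Target genes called higher ran from 5 to 20 and lower from 0 to 1 with a library left out, the lower count being 0 with library totals and with the length trend removed. Heat shock genes called higher numbered 1 with DESeq2 and 0 to 3 with a library left out, and those called lower 1 with library totals and 0 to 3 with a library left out. The cause of these shifts was not tested.

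Of the members not called, 5 changed sign. With a library left out in edgeR, values reached 1.18 for Fos, -0.72 for Jun, 0.71 for Junb, 0.19 for Jund and -1.95 for Egr1. Fos was -0.81 and -0.47 without infarcted replicate 1 and without uninjured replicate 2 (-0.78 and -0.48 in DESeq2), and Junb was -0.21 and -0.03 (-0.18 and -0.042 in DESeq2). Jun was 0.15 with library totals, 0.13 without infarcted replicate 2 and 0.09 without uninjured replicate 1 (0.15 and 0.065 in DESeq2). Jund was -0.12 without infarcted replicate 1 and -0.11 without uninjured replicate 1 (-0.094 and -0.14 in DESeq2). Egr1 was 0.18 with library totals, 0.60 without infarcted replicate 2 and 0.83 without uninjured replicate 1 (0.63 and 0.81 in DESeq2). Fosl1 has no value at 1 CPM in 2 libraries, without infarcted replicate 1, or in DESeq2 with a library left out. The splicing read minimum of 5, 10 or 20 left the same number of events, 1.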

Other observations

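The other immediate-early genes named here had their highest level in infarcted replicate 1, and were chosen after their values were seen. Egr3, another EGR family gene, was at 9.20 and 1.84 CPM in infarcted replicates 1 and 2 and 1.09 and 0.223 CPM in uninjured replicates 1 and 2, the same order of libraries as Egr2. The nuclear receptor Nr4a1 was at 94.4 and 26.1 against 50.2 and 11.3 CPM, so that replicate 1 was the higher mouse in each group. Its relative Nr4a3 was at 13.7 and 6.15 against 1.09 and 1.003 CPM, apart between the groups and level between the uninjured mice. Arc was at 11.7 and 3.15 against 3.49 and 4.65 CPM. By edgeR Nr4a3 was called higher (adjusted p = 0.000229), and Egr3, Nr4a1 and Arc were not (adjusted p = 0.241, 0.652 and 0.443).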
